A study of Mus musculus with 10 samples.

Results

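The 44 genes described here encode enzymes that break down branched-chain amino acids, glycine, lysine, tryptophan, proline and tyrosine, with the propionate, glutamate, GABA and one-carbon steps that adjoin them, and the enzymes that make serine. They were selected by name, with results of the comparison between Dp1Rhr and control mice already known, so the differences below describe the genes and are not an independent test of them. Each gene was read from its brightest probe set with a single annotated symbol, and all 44 were measured among the 19938 genes tested. Of these, 41 belong to breakdown and its neighbouring steps and 3 (Phgdh, Psat1 and Psph) to serine synthesis. Gene expression was measured in the whole right and left hippocampus of male mice aged 16 weeks, with 1 array per mouse. The labels give the background as C57BL/6N, whereas the study's methods describe backcrossing to C57BL/6J. Of the mice, 5 carried Dp1Rhr, a tandem duplication from Cbr1 to Fam3b on chromosome 16 that brings these genes to 3 copies as in part of the Down syndrome trisomy, and 5 were control littermates without it. The controls were born from crosses between the Dp5Yah and Dp1Rhr lines and served all genotypes of that cross, of which only Dp1Rhr and control mice are reported here. Values are log2 signals after robust multi-array averaging (RMA), and a log2 fold change is the mean of Dp1Rhr minus the mean of control.

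Leucine, isoleucine and valine first lose their amino group to 2-oxoglutarate, then a carboxyl group in the branched-chain ketoacid dehydrogenase complex, and their remaining carbon skeletons follow separate mitochondrial routes to acetyl-CoA or, through propionyl-CoA, to succinyl-CoA. In the brain these reactions also supply nitrogen for glutamate. Glycine is broken down by the mitochondrial glycine cleavage system, which is prominent in astrocytes and whose loss in humans causes nonketotic hyperglycinaemia. Lysine is degraded through the saccharopine and pipecolate routes. Serine is made from a glycolytic intermediate, mainly in astrocytes, and serves as the source of D-serine, a co-agonist of NMDA receptors.

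The arrays had medians between 6.77 and 6.83. Of 31 measured genes of the duplicated interval, 14 were higher in Dp1Rhr and 0 lower at a limma adjusted p below 0.05. The shares over all genes tested were 0.627% and 0.176%. None of the 44 enzymes lies in the duplicated interval. They are spread over 20 chromosomes, with only Prodh and Abat on chromosome 16. All 9 listed hippocampal neurone markers were measured, with list means of 10.34 ± 0.02 in Dp1Rhr and 10.38 ± 0.03 in control (SD, n = 5 each). Their median log2 fold change was -0.04, with 3 above 0 and 6 below.

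Among the 44 enzymes, 6 breakdown genes were higher in Dp1Rhr at a limma adjusted p below 0.05 and 0 were lower. They were Rida (1.43-fold), Aldh9a1 (1.26-fold), Gldc (1.26-fold), Aldh7a1 (1.19-fold), Mmut (1.19-fold) and Hibch (1.18-fold). Over all genes tested, 0.627% were higher and 0.176% were lower by the same rule. The log2 fold change was above 0 for 37 of 41 breakdown genes, with a median of 0.09, and for 0 of 3 serine synthesis genes, with a median of 0.00. Over all 19938 genes the median was also 0.00, with 9954 above 0 and 9984 below. All 5 Dp1Rhr arrays lay above all 5 control arrays for 8 of the 44 enzymes and below them for 0, against 1.82% and 1.70% of all genes. At an unadjusted p below 0.05, 17 of the 44 were higher and 1 was lower, against 8.55% and 6.44% of all genes. Since the genes were chosen with this contrast known, these shares are printed side by side and nothing is read from them.

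**Figure D1:**
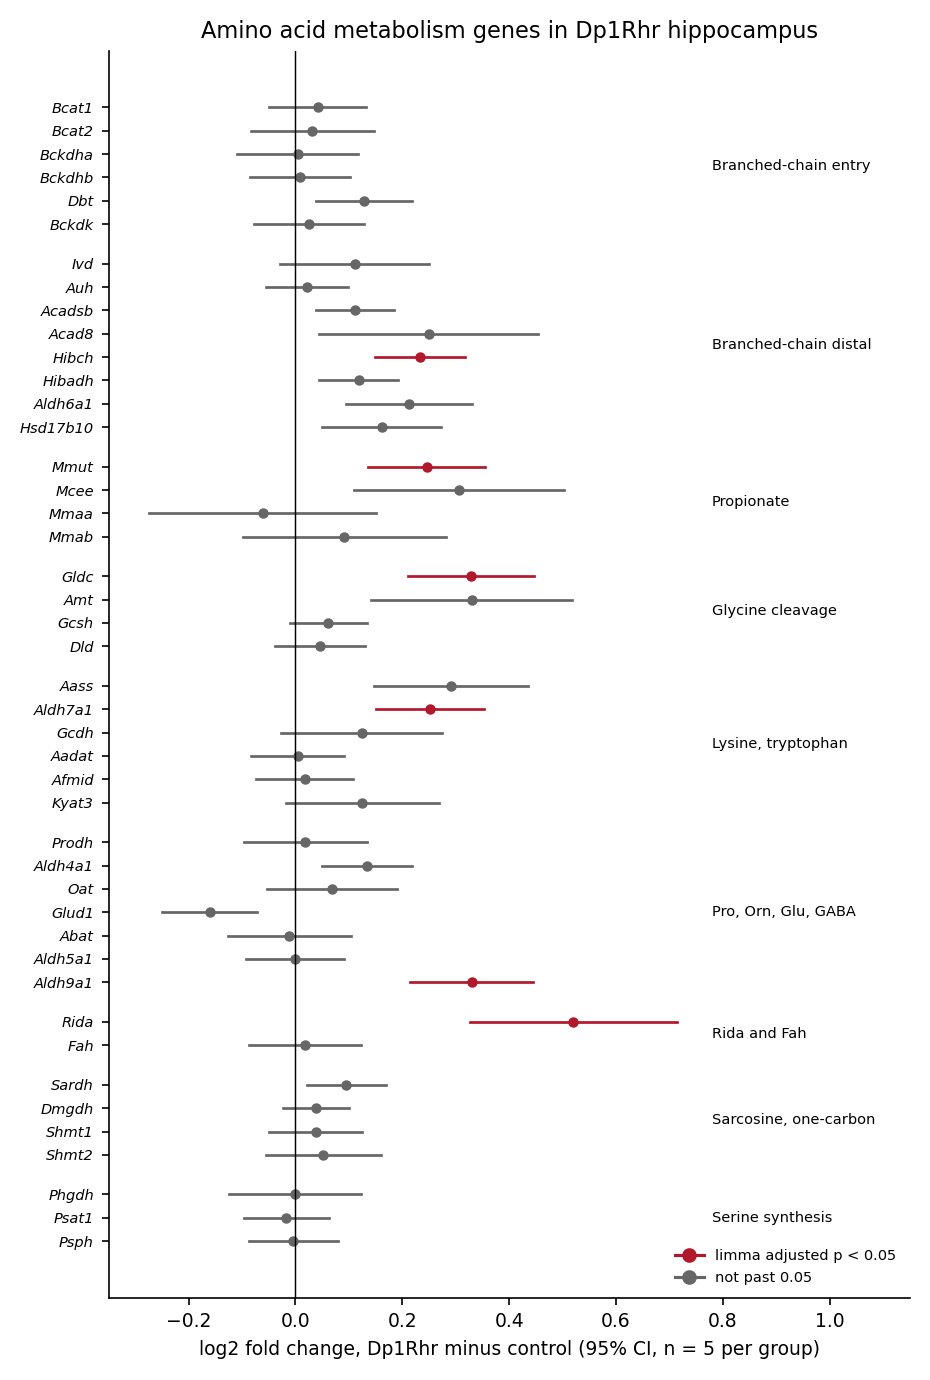
Log2 fold change (Dp1Rhr minus control, horizontal axis) of the 44 enzymes grouped by pathway, with points for the estimate and bars for the 95% confidence interval from limma (n = 5 per group). The 6 genes in red passed an adjusted p of 0.05, Rida lies farthest to the right at 0.52, Glud1 farthest to the left at -0.16, and the 3 serine synthesis genes at the bottom lie at 0.

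None of the 6 genes of the first steps of branched-chain breakdown passed. Bcat1 and Bcat2, the cytosolic and mitochondrial aminotransferases, had log2 fold changes of 0.04 and 0.03. Bckdha and Bckdhb, the subunits of the dehydrogenase's decarboxylase, had 0.00 and 0.01, and Bckdk, the kinase that switches the complex off, had 0.03. The intervals of these 5 genes all held 0. Dbt, the transacylase core of the complex, had the smallest p of the group. Its signals in Dp1Rhr were 9.69, 9.71, 9.62, 9.74 and 9.64, against 9.44, 9.54, 9.63, 9.63 and 9.52 in control. The ranges overlapped only through Dp1Rhr replicate 3 and control replicates 3 and 4. The difference was 0.13 ± 0.04 (SE) with a limma adjusted p of 0.159, and Dbt did not pass.

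All 8 enzymes of the later, amino acid-specific steps had a log2 fold change above 0, and 1 of them passed. That gene was Hibch (chr1:52845038-52920986, build GRCm38), the hydrolase that frees 3-hydroxyisobutyrate from its CoA ester on the valine route. Its signals were 7.41, 7.50, 7.32, 7.44 and 7.39 in Dp1Rhr, against 7.20, 7.10, 7.21, 7.16 and 7.21 in control. The lowest Dp1Rhr array thus stood above the highest control array, and Hibch was higher by 0.23 ± 0.04 (SE) with an adjusted p of 0.0291 in limma.

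The other valine enzymes had positive differences that did not pass. Acad8, the isobutyryl-CoA dehydrogenase of the same route, was at 0.25 ± 0.09 (adjusted p = 0.228 in limma), and its arrays ran between 8.61 and 9.10 in Dp1Rhr and between 8.39 and 8.77 in control. Aldh6a1, the methylmalonate semialdehyde dehydrogenase that ends the route, was at 0.21 ± 0.05 (0.0893), between 9.63 and 9.90 in Dp1Rhr and between 9.47 and 9.66 in control. Hibadh, which oxidises 3-hydroxyisobutyrate, was at 0.12 ± 0.03. A second Hibadh probe set, far dimmer at a mean of 4.43 against 10.60, had a log2 fold change of -0.01. On the isoleucine route, the dehydrogenase Acadsb was at 0.11 and its 5 Dp1Rhr arrays all lay above the control arrays, although the gap between the nearest arrays was less than 0.01. Hsd17b10, which acts later on that route and is also part of mitochondrial RNase P, was at 0.16. On the leucine route, the isovaleryl-CoA dehydrogenase Ivd was at 0.11 and the hydratase Auh at 0.02.

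Propionyl-CoA from valine and isoleucine is turned into succinyl-CoA, and the last steps are those of the epimerase Mcee and the cobalamin-dependent mutase Mmut. Both were among the higher values. Mmut (chr17:40934685-40961990) measured 9.42, 9.56, 9.54, 9.32 and 9.37 in Dp1Rhr, against 9.24, 9.12, 9.27, 9.16 and 9.19 in control. The groups were separate, with the lowest Dp1Rhr array 0.05 above the highest control array. Mmut was higher by 0.25 ± 0.05 (SE), and its limma adjusted p of 0.0494 was the one nearest the threshold among those that passed. The next gene outside was Aass, at 0.0707. Mcee had a larger difference, 0.31 ± 0.09, and a wider spread, with Dp1Rhr arrays from 10.81 to 11.20 overlapping control arrays from 10.55 to 11.00 (adjusted p = 0.126 in limma). Of the cobalamin proteins that serve Mmut, Mmab, the adenosyltransferase, was at 0.09 and Mmaa, the chaperone that loads the cofactor, at -0.06, each with an interval that held 0.

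Of the 4 genes of the glycine cleavage system, 1 passed. Gldc (chr19:30098441-30175441), the decarboxylase that takes up glycine, had signals of 9.77, 9.74, 9.63, 9.66 and 9.47 in Dp1Rhr, against 9.29, 9.26, 9.41, 9.31 and 9.36 in control. No arrays overlapped, and Dp1Rhr replicate 5 came closest to control. Gldc was higher by 0.33 ± 0.05 (SE), with an adjusted p of 0.0291 in limma. Amt, the aminomethyltransferase of the system, had an equal difference of 0.33 but a larger error of 0.09. Its Dp1Rhr arrays at 8.63, 8.84, 8.39, 8.68 and 8.35 overlapped control arrays at 8.21, 8.21, 8.36, 8.13 and 8.33 through Dp1Rhr replicate 5 alone, and Amt did not pass (0.0945). Gcsh, the lipoyl carrier protein, and Dld, the dehydrogenase shared with other complexes, differed by 0.06 and 0.05.

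Among the lysine and tryptophan genes, Aass and Aldh7a1 had the largest differences, and only Aldh7a1 passed. Aldh7a1 (chr18:56524722-56572991), the dehydrogenase of aminoadipate semialdehyde whose loss in humans causes pyridoxine-dependent epilepsy, measured 10.91, 10.87, 10.82, 10.83 and 10.64 in Dp1Rhr, against 10.50, 10.55, 10.59, 10.59 and 10.59 in control. Dp1Rhr replicate 5 was again the lowest of its group and lay 0.05 above control. The gene was higher by 0.25 ± 0.05 (SE), with an adjusted p of 0.0387 in limma. Aass, the bifunctional enzyme that opens the saccharopine route, had signals of 7.34, 7.21, 7.18, 7.20 and 7.33 in Dp1Rhr and 7.06, 6.75, 6.90, 7.13 and 6.96 in control. These did not overlap either, but control varied more and the difference of 0.29 ± 0.07 did not pass. Gcdh, the glutaryl-CoA dehydrogenase downstream of both lysine and tryptophan, was at 0.12 and its ranges overlapped. The transaminases Aadat and Kyat3 were at 0.00 and 0.12 and the formamidase Afmid, of the kynurenine route, at 0.02. Aadat was the dimmest of the 44 genes, with a mean of 5.04.

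Of the proline, ornithine, glutamate and GABA enzymes, Aldh9a1 passed. Aldh9a1 (chr1:167349963-167368530), which oxidises 4-aminobutyraldehyde to GABA and trimethylaminobutyraldehyde on the way to carnitine, measured 9.83, 9.77, 9.81, 9.68 and 9.55 in Dp1Rhr, against 9.41, 9.30, 9.46, 9.39 and 9.43 in control. The groups did not overlap, with replicate 5 lowest in Dp1Rhr and replicate 2 lowest in control. The difference was 0.33 ± 0.05 (SE) and its adjusted p of 0.0276 was the smallest among the 44 genes in limma. Of the enzymes of GABA breakdown, the transaminase Abat was at -0.01 and the succinate semialdehyde dehydrogenase Aldh5a1 at 0.00. Prodh, which opens proline breakdown, was at 0.02, Oat, the ornithine aminotransferase, at 0.07 and Aldh4a1, which completes both routes, at 0.13.

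Glud1, the mitochondrial glutamate dehydrogenase, was the only one of the 44 genes below control at an unadjusted p below 0.05. Its signals were 10.63, 10.61, 10.57, 10.50 and 10.68 in Dp1Rhr, against 10.85, 10.76, 10.76, 10.68 and 10.76 in control. The ranges met between Dp1Rhr replicate 5 and control replicate 4. The difference of -0.16 ± 0.04 had an adjusted p of 0.0890 in limma and did not pass.

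The largest difference of all 44 genes was that of Rida (chr15:34484022-34495246), a deaminase that clears reactive enamine and imine intermediates left by pyridoxal phosphate enzymes. It measured 9.14, 9.14, 9.13, 9.17 and 8.71 in Dp1Rhr, against 8.32, 8.57, 8.63, 8.55 and 8.63 in control. In Dp1Rhr 4 arrays were within 0.04 of each other and replicate 5 was far below them, and in control replicate 1 was the lowest. The groups still did not overlap, and Rida was higher by 0.52 ± 0.09 (SE) with an adjusted p of 0.0321 in limma. Fah, the last enzyme of tyrosine breakdown, was at 0.02.

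The sarcosine and one-carbon enzymes had small differences. Sardh, which oxidises sarcosine to glycine, had the smallest p of that group. It measured 7.48, 7.42, 7.41, 7.37 and 7.38 in Dp1Rhr, against 7.40, 7.33, 7.27, 7.26 and 7.32 in control. Control replicate 1 lay within the Dp1Rhr range, and the difference of 0.10 ± 0.03 did not pass (adjusted p = 0.206 in limma). Dmgdh, the dehydrogenase that precedes it, was at 0.04, and the serine hydroxymethyltransferases Shmt1 (cytosolic) and Shmt2 (mitochondrial), which exchange serine and glycine, were at 0.04 and 0.05.

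The serine synthesis genes showed no detectable difference between the groups. Phgdh, the dehydrogenase that commits 3-phosphoglycerate to serine, measured 8.84, 8.91, 8.86, 8.68 and 8.61 in Dp1Rhr, against 8.75, 8.71, 8.83, 8.76 and 8.86 in control. Psat1, the transaminase that follows, measured 10.67, 10.62, 10.71, 10.53 and 10.57 in Dp1Rhr, against 10.62, 10.59, 10.63, 10.69 and 10.65 in control. For both genes the Dp1Rhr arrays reached above and below the whole control range. Psph, the phosphatase that ends the route, measured 8.12, 8.15, 8.14, 8.00 and 8.00 in Dp1Rhr, against 8.10, 8.08, 8.12, 8.02 and 8.11 in control. Dp1Rhr replicates 4 and 5 were the lowest 2 arrays of their group for Phgdh, Psat1 and Psph alike. The 95% confidence interval of the log2 fold change ran from -0.12 to 0.12 for Phgdh, from -0.10 to 0.06 for Psat1 and from -0.09 to 0.08 for Psph. Whether breakdown and synthesis differ from each other was not tested, since the split of the genes was made with their values known.

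**Figure D2:**
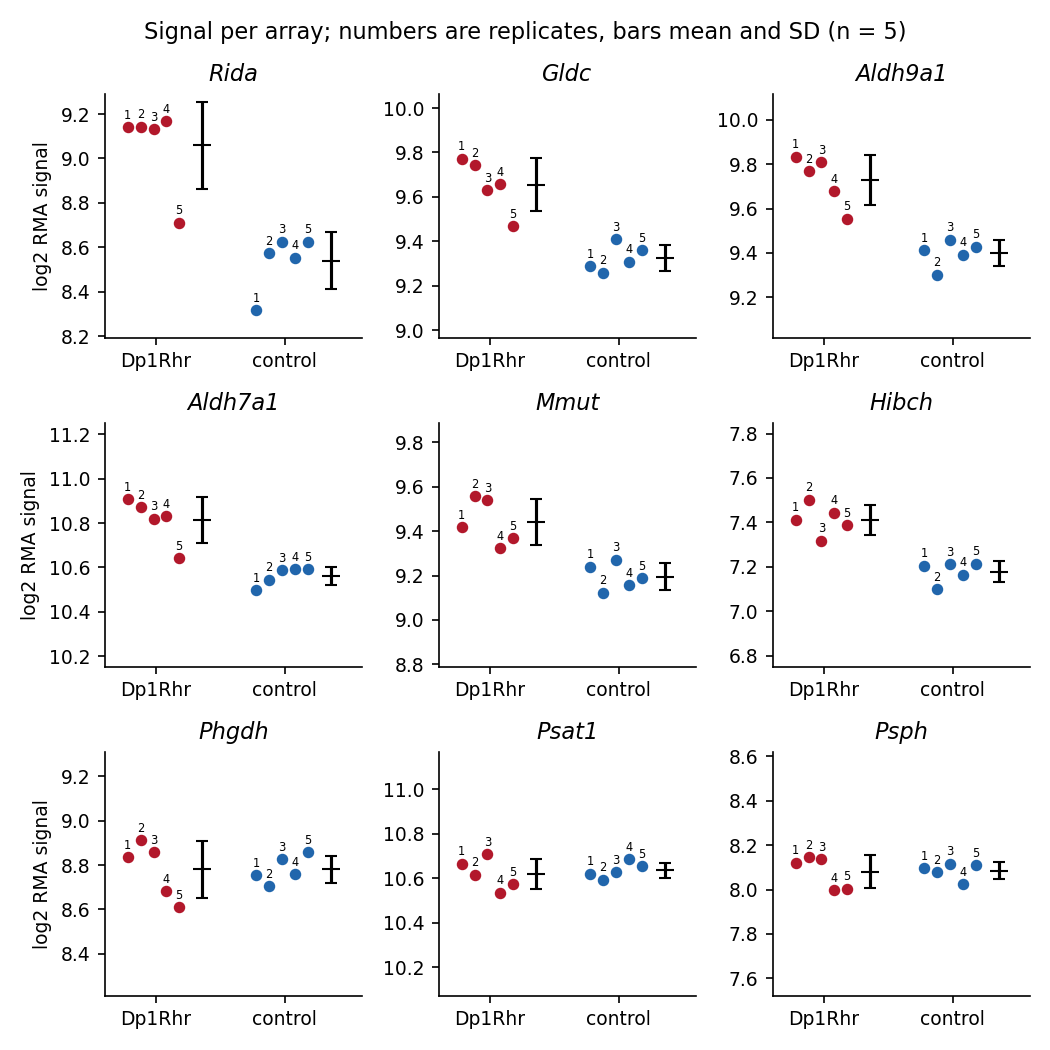
Log2 RMA signal (vertical axis, equal span in each panel) of the 6 genes that passed and the 3 serine synthesis genes in each array, with red points for Dp1Rhr, blue points for control, numbers for the replicate and black bars for the mean and SD (n = 5). The red points lie above all blue points in the upper 6 panels and on both sides of them in the lower 3.

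Promoter windows are shown for the breakdown genes that passed and had an entry, and for a pair of serine synthesis genes beside them. RefSeq windows on GRCm38.p6, each reaching 250 bases before to 50 after a transcript start, were found for 39 of the 44 genes (45 windows). Dbt, Mmut, Aldh7a1, Abat and Rida had no entry. Shown 5′ to 3′ on the gene's strand are Hibch (chr1:52844788-52845087, plus strand), Gldc (chr19:30175392-30175691, minus strand), Aldh9a1 (chr1:167349741-167350040, plus strand), Phgdh (chr3:98339920-98340219, minus strand) and Psat1 (chr19:15925010-15925309, minus strand, the outer of its 2 windows). Capitals mark the CCAAT box (CCAAT, or ATTGG on the other strand) and the GC box (GGGCGG, or CCGCCC on the other strand).
Hibch: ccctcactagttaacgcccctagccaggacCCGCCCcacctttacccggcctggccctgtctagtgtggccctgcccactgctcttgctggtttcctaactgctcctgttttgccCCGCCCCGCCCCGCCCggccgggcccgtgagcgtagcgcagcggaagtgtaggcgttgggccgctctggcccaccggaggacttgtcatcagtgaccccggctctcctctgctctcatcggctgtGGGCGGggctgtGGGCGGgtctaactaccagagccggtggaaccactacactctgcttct
Gldc: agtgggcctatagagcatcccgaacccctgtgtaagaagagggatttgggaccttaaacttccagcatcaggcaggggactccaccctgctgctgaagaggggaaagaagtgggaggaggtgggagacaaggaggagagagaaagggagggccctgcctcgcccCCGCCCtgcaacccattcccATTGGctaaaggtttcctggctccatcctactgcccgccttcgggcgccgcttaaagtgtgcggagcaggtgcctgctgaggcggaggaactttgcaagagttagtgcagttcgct
Aldh9a1: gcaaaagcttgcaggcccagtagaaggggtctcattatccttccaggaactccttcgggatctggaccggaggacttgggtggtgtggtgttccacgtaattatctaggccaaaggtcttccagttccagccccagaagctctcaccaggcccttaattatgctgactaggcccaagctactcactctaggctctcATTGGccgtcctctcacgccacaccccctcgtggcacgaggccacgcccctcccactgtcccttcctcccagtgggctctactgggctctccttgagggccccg
Phgdh: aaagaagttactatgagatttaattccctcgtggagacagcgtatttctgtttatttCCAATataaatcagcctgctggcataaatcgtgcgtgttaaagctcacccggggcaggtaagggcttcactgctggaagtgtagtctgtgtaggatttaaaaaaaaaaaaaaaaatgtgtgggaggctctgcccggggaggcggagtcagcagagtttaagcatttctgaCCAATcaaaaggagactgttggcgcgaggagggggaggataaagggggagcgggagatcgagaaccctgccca
Psat1: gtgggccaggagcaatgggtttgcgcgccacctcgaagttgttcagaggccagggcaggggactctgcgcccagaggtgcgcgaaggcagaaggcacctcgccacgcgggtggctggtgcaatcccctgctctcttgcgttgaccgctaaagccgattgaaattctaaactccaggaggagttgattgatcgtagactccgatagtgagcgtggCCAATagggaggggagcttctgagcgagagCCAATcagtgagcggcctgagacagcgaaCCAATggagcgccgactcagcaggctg

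Hibch held 6 GC boxes and no CCAAT box, Gldc held 1 of each, and Aldh9a1 held 1 CCAAT box. Phgdh held 2 CCAAT boxes and the printed Psat1 window 3, without a GC box in either, while the inner Psat1 window held 2 GC boxes and that of Psph 3. Counted over windows on both strands, a CCAAT box was in 28 of the 45 windows (62.2%), against 37.4% of 19177 windows of all genes tested and 37.4% of all 32851 windows. At least 1 window held it for 23 of 36 breakdown genes and for 3 of 3 serine synthesis genes. A GC box was in 25 of the 45 windows (55.6%), against 49.2% for the genes tested and 35.7% of all windows. At least 1 window held it for 22 of 36 breakdown genes and for 2 of 3 serine synthesis genes. The element TGATGNAA, bound by ATF4, a regulator known to drive serine synthesis genes under amino acid stress, was in 0 of the 45 windows, against 3.08% for the genes tested and 3.97% of all windows. The E-box CACGTG, which reads the same on both strands, was in 0 of the 45, against 8.24% for the genes tested and 7.15% of all windows. These are matches of letters, and binding was not measured.

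**Figure D3:**
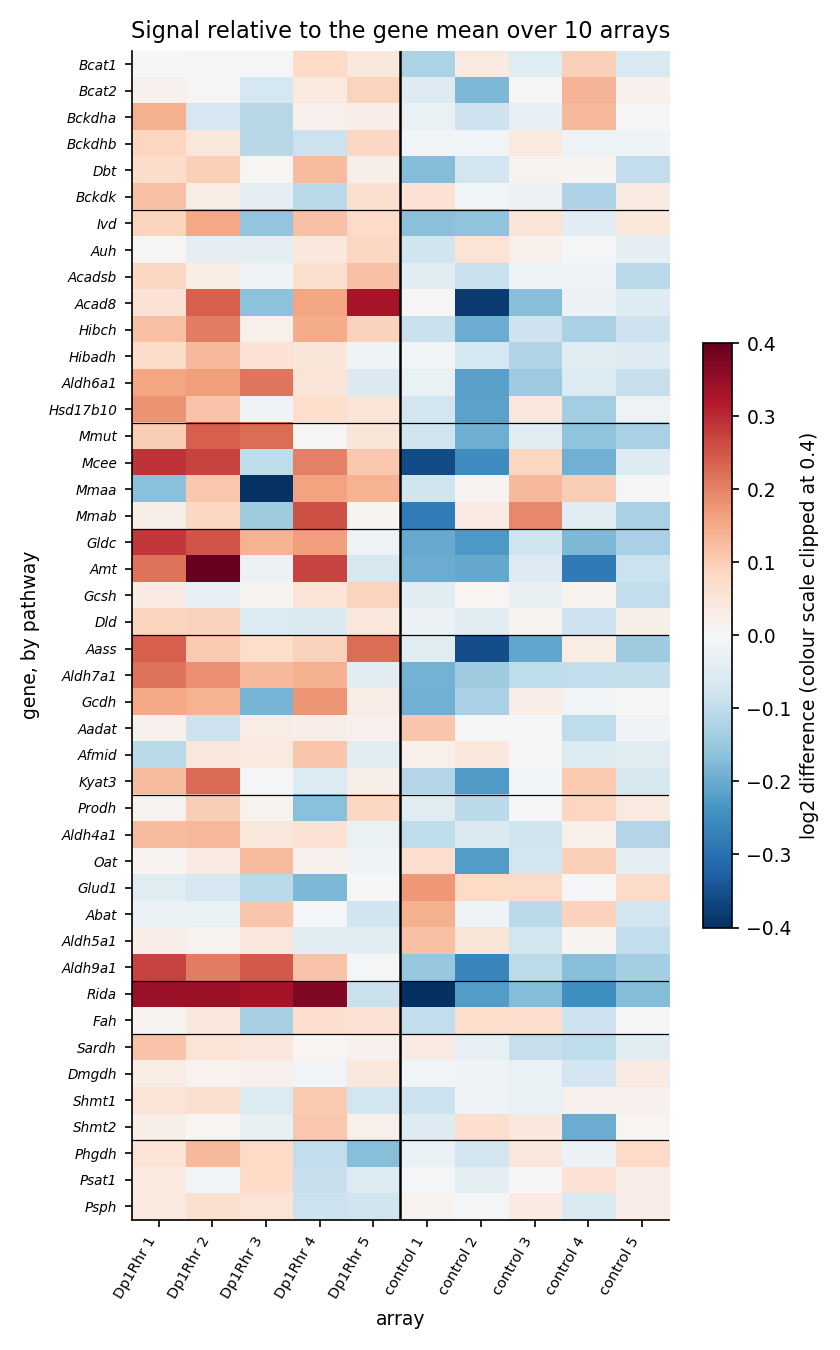
Log2 signal of each of the 44 enzymes (rows, by pathway) in each array (columns, Dp1Rhr left and control right of the line) minus the mean of that gene over the 10 arrays, with red above and blue below that mean and the colours clipped at 0.4. Rida, Gldc and Aldh9a1 are red in Dp1Rhr replicates 1 to 4 and pale in replicate 5, Glud1 is mostly blue in Dp1Rhr and red in control, and the rows of serine synthesis at the bottom are mixed in both groups.

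Arrays within a group did not move the genes alike. The mean of the 41 breakdown genes was 8.93, 8.94, 8.84, 8.91 and 8.88 in Dp1Rhr, against 8.77, 8.75, 8.82, 8.80 and 8.79 in control. The groups did not overlap, with Dp1Rhr replicate 3 and control replicate 3 nearest each other. Dp1Rhr replicate 3 had the lowest Dp1Rhr value for Ivd, Acad8, Mcee, Mmaa, Mmab and Gcdh, while replicate 5 was lowest for Rida, Gldc, Aldh9a1, Aldh7a1, Aldh6a1 and Amt. In control, replicate 2 was lowest for Gldc, Aldh9a1, Mmut, Hibch, Aass, Acad8 and Aldh6a1. The mean of the 3 serine synthesis genes was 9.21, 9.22, 9.23, 9.07 and 9.06 in Dp1Rhr, against 9.16, 9.13, 9.19, 9.16 and 9.21 in control, with overlap.

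Markers of other cells in the tissue also differed between these arrays. In bulk tissue, more cells of a type and more RNA per cell cannot be told apart. Of 18 choroid plexus markers 16 were measured, and all 16 had a log2 fold change above 0 (median 0.87). At an unadjusted p below 0.05, 12 of them were higher, and 0 were past the adjusted threshold. Their list mean was 6.93 and 7.10 in control replicates 2 and 3 and lay between 8.27 and 9.28 in the other 8 arrays. For the mean of the breakdown genes, control replicate 2 was lowest of its group (8.75) and control replicate 3 highest (8.82). Of the 6 genes that passed, control replicate 2 was lowest of its group for Gldc, Aldh9a1, Mmut and Hibch. Control replicate 1 was lowest for Rida and Aldh7a1. Without control replicates 2 and 3 the median over the breakdown genes was 0.09. The log2 fold changes were then 0.56 for Rida, 0.34 for Gldc and 0.32 for Aldh9a1. They were 0.25 for Aldh7a1, 0.25 for Mmut and 0.22 for Hibch. None of the 6 passed in those 8 arrays, with limma adjusted p from 0.101 for Gldc to 0.140 for Mmut. With the choroid plexus score as a covariate, the log2 fold changes ran from 0.21 for Hibch to 0.65 for Rida, and 0 passed. Over all 19938 genes, 5 were higher in each of these fits, against 125 in the fit of all 10 arrays without a covariate.

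Of the markers of other cells, 1 was higher and passed. It was Alas2, the erythroid enzyme that opens haem synthesis and the only measured gene of 4 blood markers. Its signals were 8.38, 8.09, 8.28, 8.12 and 7.80 in Dp1Rhr, against 7.62, 7.38, 7.73, 7.33 and 7.29 in control. The groups did not overlap, and the difference was 0.67 ± 0.11 (SE), with an adjusted p of 0.0304 in limma. Dp1Rhr replicate 5 was lowest in its group, as it was for Rida, Gldc, Aldh9a1 and Aldh7a1. Mmut was lowest in Dp1Rhr replicate 4 and Hibch in replicate 3. Replicate 5 also had the lowest Dp1Rhr list means of the oligodendrocyte markers (11.21) and the ependymal markers (6.66). The 14 astrocyte markers had list means between 10.93 and 11.01 in Dp1Rhr and between 10.89 and 11.02 in control. Their median log2 fold change was 0.04, with 0 higher and 1 lower (Fgfr3) at the adjusted threshold. At an unadjusted p below 0.05, 3 astrocyte markers were higher and 4 lower, against 8.55% and 6.44% of all genes. The 8 measured oligodendrocyte markers all lay above 0 (median 0.15, list means from 11.21 to 11.41 in Dp1Rhr and from 11.10 to 11.25 in control), as did the 7 ependymal markers (median 0.16, from 6.66 to 6.88 in Dp1Rhr and from 6.39 to 6.67 in control). At an unadjusted p below 0.05, 5 of the oligodendrocyte and 6 of the ependymal markers were higher. For 2 ependymal markers all Dp1Rhr arrays lay above all control arrays. Neither list had a gene past the adjusted threshold. The 7 measured endothelial markers had a median of 0.12, with 6 above 0 and 3 higher at an unadjusted p below 0.05, and list means from 8.67 to 8.82 in Dp1Rhr and from 8.58 to 8.76 in control. The 8 meningeal markers had a median of 0.07, with 2 higher at an unadjusted p below 0.05 (Dcn at 0.43 and Igf2 at 0.47), and list means from 8.16 to 8.24 in Dp1Rhr and from 7.85 to 8.29 in control. Neither of these lists had a gene past the adjusted threshold. The 8 measured microglial markers had a median of 0.07, with 6 above 0 and 2 below. At an unadjusted p below 0.05, 2 microglial markers were higher, and 0 passed the adjusted threshold. The 8 neuronal markers had a median of -0.03, with 2 above 0 and 6 below. Their list means ran from 12.39 to 12.42 in Dp1Rhr and from 12.40 to 12.50 in control. At an unadjusted p below 0.05, 0 neuronal markers were higher and 1 was lower (Syn1), and 0 passed the adjusted threshold. The part of choroid plexus, blood, astrocyte, oligodendrocyte, ependymal, endothelial, meningeal, microglial and neuronal RNA in the enzymes' differences was not tested.

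**Figure D4:**
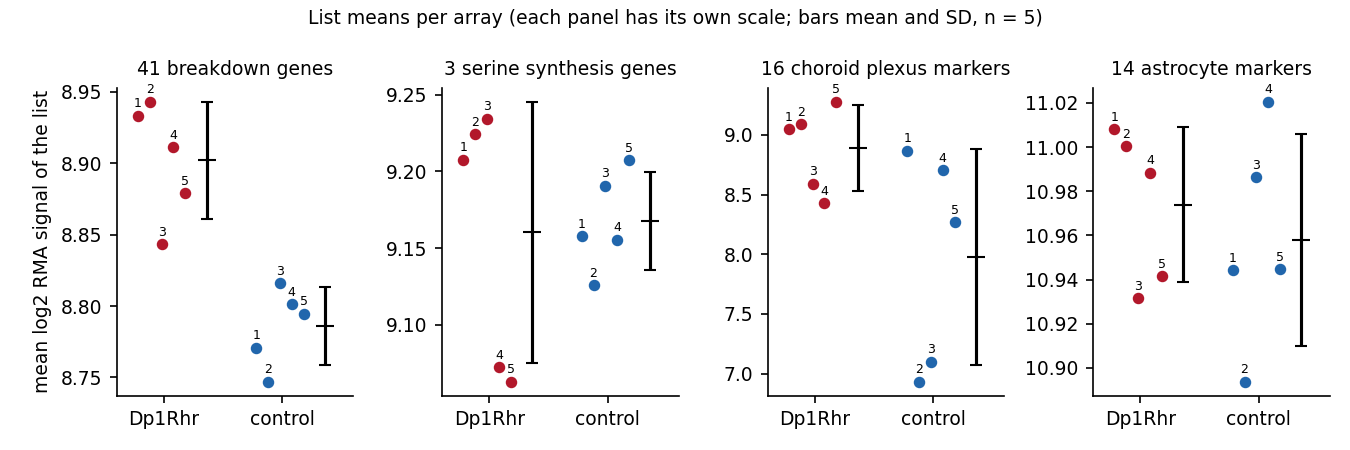
Mean log2 RMA signal per array (vertical axis, a different scale in each panel) of the 41 breakdown genes, the 3 serine synthesis genes, 16 choroid plexus markers and 14 astrocyte markers, with Dp1Rhr in red, control in blue, replicate numbers above the points and bars for the mean and SD (n = 5). Breakdown means do not overlap between the groups, while control replicates 2 and 3, at 6.93 and 7.10, lie far below the other arrays for choroid plexus.

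The calls of the 6 genes depended on single arrays, while their differences moved little. With 1 array left out at a time, the number of the 44 genes called higher ran from 0 to 8. It was 0 without Dp1Rhr replicate 1, 2 or 4 or control replicate 2 or 5, 2 without control replicate 3, 4 without Dp1Rhr replicate 3 or control replicate 1, 5 without control replicate 4 and 8 without Dp1Rhr replicate 5. The number called higher over all 19938 genes moved with it, at 5, 10 and 12 without Dp1Rhr replicate 1, 2 or 4, 18 and 11 without control replicate 2 or 5, 37 without control replicate 3, 138 without Dp1Rhr replicate 3, 94 and 119 without control replicate 1 or 4, and 217 without Dp1Rhr replicate 5. Gldc and Aldh9a1 passed in 5 of the 10 fits, Hibch and Rida in 4, and Aldh7a1 and Mmut in 1, that without Dp1Rhr replicate 5. Over the same fits the log2 fold change stayed between 0.46 and 0.61 for Rida, 0.30 and 0.38 for Gldc, 0.30 and 0.37 for Aldh9a1, 0.23 and 0.29 for Aldh7a1, 0.22 and 0.27 for Mmut, and 0.21 and 0.26 for Hibch. FCROS, a method built on the ranks of pairwise fold changes, called 11 of the 44 higher and 1 lower, against 3.40% and 1.99% of all genes.

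Of 73 further genes listed for these pathways, 62 were measured, and 1 was higher and 0 lower, against 0.627% and 0.176% of all genes. The gene was Tdo2, the dioxygenase that opens tryptophan breakdown, which measured 6.98, 6.98, 7.02, 7.04 and 6.99 in Dp1Rhr, against 6.80, 6.82, 6.80, 6.70 and 6.66 in control. The arrays did not overlap, and the difference was 0.25 ± 0.04 (SE) with an adjusted p of 0.0210 in limma. In the other lists the smallest p belonged to Mmachc, a cobalamin processing protein (0.23), the electron transfer flavoprotein subunit Etfb (0.27), the ornithine decarboxylase Odc1 (0.31) and the maleylacetoacetate isomerase Gstz1 (0.15), and none passed. The median over the 62 genes was 0.02, with 37 above 0 and 25 below.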

How the data were processed

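Total RNA from the hippocampus of each mouse was hybridised to Affymetrix Mouse Gene 1.0 ST arrays. The deposited log2 signals were made by the authors with RMA, which subtracts background, quantile normalises arrays and summarises probe sets. A shift of all genes at once cannot be seen after quantile normalisation. The RMA version and the set of arrays normalised at once were not given in the sources used here. Tools and build named in the submitters' notes are RMA, limma and mm10. The number of arrays limits precision. The labels call the arrays biological replicates.

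Of 35556 probe sets, 21789 had 1 gene symbol in the platform annotation, 1621 had several and 12146 were not listed. The brightest was used for 999 genes with several. Genomic positions came from RefSeq on GRCm38.p6. Dp1Rhr was compared with control over all 19938 genes in limma 3.58.1 (R 4.3.3, lmFit, eBayes, two-sided, Benjamini-Hochberg, adjusted p below 0.05). The procedure was tested on simulated data with independent noise for each gene, a setting without shifts that genes of an array share. The study's own method, FCROS, was an alternative (trim 0.25, limits 0.025 and 0.975), since its fixed tails call genes whether or not any changed. It was written anew here and run on the brightest probe set of each gene, so its counts differ from those of the study.

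The 44 genes, the lists and the tests were chosen with earlier results of these data known. All 44 are named, with every array given for those that passed, the serine synthesis genes and the gene with the smallest p in each pathway. Arrays of Amt, Aass and Glud1 were also given after their values were seen. Among further pathway genes, those that passed are named, otherwise the 1 with the smallest p of each list. Alternatives were a replicate block, leaving out arrays, second quantile normalisation, median centring, a filter at the 40th percentile of mean signal, probe set averaging, eBayes with trend and robust, and a choroid plexus covariate (the mean of z-scored markers).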

Additional observations from a re-analysis of the deposited data

Results flagged for a closer look

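Each group of 5 arrays was examined for 1 array standing apart from the other 4, for every enzyme, which made 88 groups. Chance alone marks about 1 group in 20, and 6 were marked. For Rida, Dp1Rhr replicate 5 was low at 8.71, with the next array at 9.13, and control replicate 1 was low at 8.32, with the next at 8.55. Dp1Rhr replicate 3 was low for Ivd at 9.71, against 9.94 in the next array, and for Fah at 9.64, against 9.78. For Aadat, Dp1Rhr replicate 2 was low at 4.96, with the next array at 5.06. For Bckdhb, control replicate 3 was high at 9.93, with the next at 9.88. Of these genes, Rida passed the test. Without Dp1Rhr replicate 5 its log2 fold change was 0.61, the highest of the 10 fits that left out 1 array.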

How the results depend on the processing

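The count of 6 higher and 0 lower genes among the 44 held after a second quantile normalisation, median centring or probe set averaging. The signals were already quantile normalised and only 1 of the 44 genes had a second probe set, so these settings could change little. It was unchanged with eBayes with trend and robust. A filter at the 40th percentile of mean signal, with 39 of the 44 genes then fitted, also left it at 6 and 0. The count of higher genes was 0 with the replicate number as a block, 0 without control replicates 2 and 3 together and 0 with the choroid plexus covariate, fits that called 4, 5 and 5 of all 19938 genes higher against 125, and ran from 0 to 8 with 1 array left out. FCROS called 11 higher, adding Aass, Acad8, Aldh6a1, Amt and Mcee, and 1 lower, Glud1, where it called 678 and 397 of all genes. The replicate numbers were taken not to pair the arrays. Deviations from the group means correlated at 0.12, -0.33, -0.34, -0.08 and 0.07 for replicates 1 to 5, and only replicate 1 correlated best with its own number. These correlations cannot show that mice of the same number shared no litter or batch. The median log2 fold change of the breakdown genes stayed between 0.07 and 0.10 over the settings and that of serine synthesis between -0.02 and 0.02. The Hibadh difference was 0.06 when its 2 probe sets were averaged. RefSeq spans of Aldh6a1, Aldh7a1, Gcdh, Afmid, Shmt2 and Psph overlap another gene, and the effect on their probe sets was not tested. With 5 arrays a group, differences within the intervals of the serine synthesis genes were not detectable.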
